A study of Mus musculus with 2 samples.

Results

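The 10 genes described here make and load major histocompatibility complex (MHC) class I molecules, and were taken by name out of the 31053 genes in the deposited tables: the heavy chains H2-K1 and H2-D1, the light chain B2m, the peptide transporter subunits Tap1 and Tap2, the loading factor Tapbp (tapasin), the transcriptional activator Nlrc5, and the inducible proteasome subunits Psmb8, Psmb9 and Psmb10. Their RNA was followed through single-cell RNA sequencing of subcutaneous tumours of B16F10, a melanoma line of C57BL/6 origin, harvested while small. One library came from Atf4wt/wt hosts (WT) and 1 from Atf4D/D hosts (KO), each made from 2 pooled tumours. ATF4 is a transcription factor of the integrated stress response. According to the study's methods, all hosts carried a tamoxifen-inducible Cre expressed from the Rosa26 locus and received tamoxifen, and KO hosts had in addition loxP-flanked Atf4 alleles, so that deletion was meant for every host cell type while the injected melanoma cells kept their own Atf4 in both libraries. The labels give 11 weeks as the age of the mice and describe each pool as male and female.

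Class I molecules carry fragments of proteins made inside a cell to its surface, where cytotoxic T cells read them. The fragments are cut by the proteasome, pumped into the endoplasmic reticulum by the TAP transporter, and fitted by tapasin into a heavy chain paired with beta-2-microglobulin. Interferon-gamma is known to raise most of these genes, partly through NLRC5, and to swap the constitutive catalytic subunits of the proteasome (Psmb5, Psmb6, Psmb7) for the inducible ones (Psmb8, Psmb9, Psmb10, in that order), which gives the immunoproteasome. B16 melanoma is a textbook example of a tumour with little surface class I in culture that regains it under interferon-gamma.

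Of the genes, 7 lay within 1.35 Mb of chromosome 17 (GRCm38, GENCODE vM21), in and beside the mouse MHC. Tapbp is at chr17:33915899-33929292 on the plus strand and H2-K1 at chr17:33996017-34000347 on the minus strand. Psmb9 (chr17:34181987-34187764, minus), Tap1 (chr17:34187553-34197225, plus), Psmb8 (chr17:34197721-34201454, plus) and Tap2 (chr17:34203527-34216321, plus) follow each other, and H2-D1 is at chr17:35262730-35267499 on the plus strand. B2m is at chr2:122147686-122153083 (plus), Nlrc5 at chr8:94434356-94527272 (plus) and Psmb10 at chr8:105935735-105938444 (minus). The 5′ ends of Tap1 and Psmb9 overlap by 212 bases on opposite strands, Zbtb22 overlaps Tapbp by 3422 bases on the same strand, and Patl2 covers B2m on the opposite strand. H2-K1 and H2-D1 are closely similar paralogs of each other and of the Q and T class I genes, so the split of UMIs between them is uncertain, and UMIs of Tapbp could in part be those of Zbtb22.

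The upstream sequences of the heavy chain, B2m, Tap1 and Psmb9, Psmb8 and Psmb10 genes are shown because the members are held to share promoter elements, while their levels below differ in pattern, Psmb10 most of all. They are the 250 bases before the RefSeq start on GRCm38.p6 (for Tap1 and Psmb9 the 225 bases between their divergent starts; for every gene shown but H2-K1 the RefSeq start lies inside the GENCODE gene, so these starts leave a gap between Tap1 and Psmb9 where the GENCODE genes overlap), written 5′ to 3′ on the strand of the gene, with motif matches in capitals; 8 of the 10 genes had an entry, and Tap2 and Nlrc5 had none.
H2-K1 (chr17:34000348-34000597, minus strand): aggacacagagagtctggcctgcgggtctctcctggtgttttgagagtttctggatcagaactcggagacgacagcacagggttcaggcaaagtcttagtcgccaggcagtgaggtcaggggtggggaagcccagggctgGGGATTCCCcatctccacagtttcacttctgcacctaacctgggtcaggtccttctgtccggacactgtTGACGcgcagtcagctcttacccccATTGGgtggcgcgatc
H2-D1 (chr17:35262844-35263093, plus strand): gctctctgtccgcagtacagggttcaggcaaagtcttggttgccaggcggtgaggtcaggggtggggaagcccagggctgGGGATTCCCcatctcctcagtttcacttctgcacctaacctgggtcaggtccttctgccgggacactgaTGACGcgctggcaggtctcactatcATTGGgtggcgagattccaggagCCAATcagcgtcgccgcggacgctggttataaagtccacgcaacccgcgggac
B2m (chr2:122147437-122147686, plus strand): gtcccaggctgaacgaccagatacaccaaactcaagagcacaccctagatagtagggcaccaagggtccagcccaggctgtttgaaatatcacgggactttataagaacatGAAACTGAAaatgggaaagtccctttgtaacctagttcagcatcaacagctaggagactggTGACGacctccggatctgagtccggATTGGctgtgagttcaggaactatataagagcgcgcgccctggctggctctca
Tap1 and Psmb9 (chr17:34187331-34187555, plus strand, the strand of Tap1): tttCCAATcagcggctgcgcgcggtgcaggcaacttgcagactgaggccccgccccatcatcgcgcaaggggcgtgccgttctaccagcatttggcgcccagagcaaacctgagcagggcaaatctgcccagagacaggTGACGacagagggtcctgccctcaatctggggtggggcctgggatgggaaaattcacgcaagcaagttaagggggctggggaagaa
Psmb8 (chr17:34197945-34198194, plus strand): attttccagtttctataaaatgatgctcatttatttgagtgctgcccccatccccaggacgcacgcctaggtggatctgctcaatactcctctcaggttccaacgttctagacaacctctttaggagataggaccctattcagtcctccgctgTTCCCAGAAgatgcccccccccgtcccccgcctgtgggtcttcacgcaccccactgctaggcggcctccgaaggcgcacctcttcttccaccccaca
Psmb10 (chr8:105938393-105938642, minus strand): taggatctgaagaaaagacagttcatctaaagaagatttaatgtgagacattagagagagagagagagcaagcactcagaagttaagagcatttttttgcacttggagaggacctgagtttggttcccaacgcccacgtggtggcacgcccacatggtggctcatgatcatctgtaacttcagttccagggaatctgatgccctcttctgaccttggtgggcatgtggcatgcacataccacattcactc

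The letters searched on both strands were the NF-kB core GGGATTCCC, the core of the interferon-stimulated response element GAAANNGAA, the gamma-activated site TTCNNNGAA, the CCAAT box, the cyclic AMP element TGACGTCA and its start TGACG, which the whole element contains. GGGATTCCC stood in the windows of H2-K1 and H2-D1 and in 0.302% of 32817 promoter windows of the same length. TGACG stood in 5 of the 8 windows (17.7% of all), and CCAAT or its reverse ATTGG in 6 of 8 (33.8% of all). The windows of Tap1 and Psmb9 overlap, and the same TGACG and the same CCAAT are counted for both genes. In H2-K1, H2-D1 and B2m alike, the first base of TGACG was 25 bases before the first base of ATTGG, and in both heavy chain genes GGGATTCCC began 69 bases before TGACG. Class I promoters are known for this order of an NF-kB element, an X box with a cyclic AMP-like end and a reversed CCAAT box. GAAACTGAA, a match to the interferon element (7.12% of all windows), was found in B2m, and TTCCCAGAA, a match to the gamma-activated site (7.01% of all), in Psmb8. Only the letters given above were searched, so interferon elements of other letters, in the heavy chain windows too, would not have been found. No member window held TGACGTCA, which stood in 1.55% of all, and the Psmb10 window held none of these letters; this says only that they are not in these bases.

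Cells were put into classes by marker genes that include no member: melanoma (Dct, Pmel, Mlana and others), macrophage, monocyte, dendritic, T/NK, fibroblast and endothelial. These marker gates held 3135 of 3861 WT and 2939 of 3557 KO cells that passed the study's filters. There were 1798 WT and 1865 KO melanoma cells, 813 and 662 macrophages, 209 and 150 monocytes, 188 and 219 fibroblasts, 62 and 22 endothelial cells, 37 and 6 dendritic cells and 28 and 15 T/NK cells. Median UMIs per cell were 11354 and 10727 in the melanoma gate against 2408 and 2361.5 in the macrophage gate. The libraries held 38417113 (WT) and 38290024 (KO) UMIs in all, and 1 cell barcode was shared between their kept cells. Levels are given as CPM, the UMIs of a gene scaled to 1e+06 of the summed UMIs of a gate in 1 library, with 95% Poisson intervals. Since each genotype is 1 library, no test across animals was possible, and ratios carry 95% intervals that cover counting error only. The 3′ UMI counts allow comparisons of 1 gene between gates, not of levels between genes.

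The libraries differed in ways that bear on the results. Atf4 itself, at 176 (WT) and 37.0 CPM (KO) in macrophages and 258 and 35.2 CPM in fibroblasts, was lower in KO host cells, and it was 227 and 204 CPM in melanoma cells. Although the labels describe both pools as mixed, the WT host gates held 0 UMIs of 4 Y-linked genes, while KO macrophages held 128 and KO fibroblasts 70; 2929 globin UMIs fell in WT macrophages and 1 in KO macrophages. Melanoma marker genes were found in host gates at 3.83% to 9.65% of their melanoma level, and 11 myeloid-only genes (Tyrobp, Lyz2, C1qa and others) in the melanoma gate at 0.524% (WT) and 0.289% (KO) of their macrophage level, which is the measure of foreign myeloid RNA against which the members are read below. Of these, C1qa, C1qb and C1qc are also markers of the macrophage gate, and in WT they were lowest, at 0.211%, 0.270% and 0.238%. Foreign RNA from fibroblasts or endothelial cells is not measured by this set.

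As a share of all UMIs of a gate, class I RNA was far lower in melanoma cells than in any host class, in both libraries. Melanoma cells also held more UMIs each, a median of 11354 (WT) and 10727 (KO) against 3739.5 and 3732 in fibroblasts. The gap in UMIs per cell is therefore smaller than the gap in CPM. Summed over the 10 genes, the melanoma level was 325 CPM (95% interval 317 to 333) in WT and 325 CPM (317 to 333) in KO. WT host gates lay at 2036 CPM in fibroblasts, 3885 in endothelial cells, 5784 in macrophages, 6600 in monocytes, 6983 in dendritic and 8099 in T/NK cells. In this WT order only the intervals of T/NK and dendritic and of dendritic and monocyte gates overlapped. In KO the order among gates of at least 20 cells was fibroblast at 1345 CPM, endothelial at 3000, monocyte at 4693 and macrophage at 4785, the last pair with overlapping intervals. The sum is carried mostly by UMIs of B2m, H2-D1 and H2-K1, so each gene is described on its own below.

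**Figure D1:**
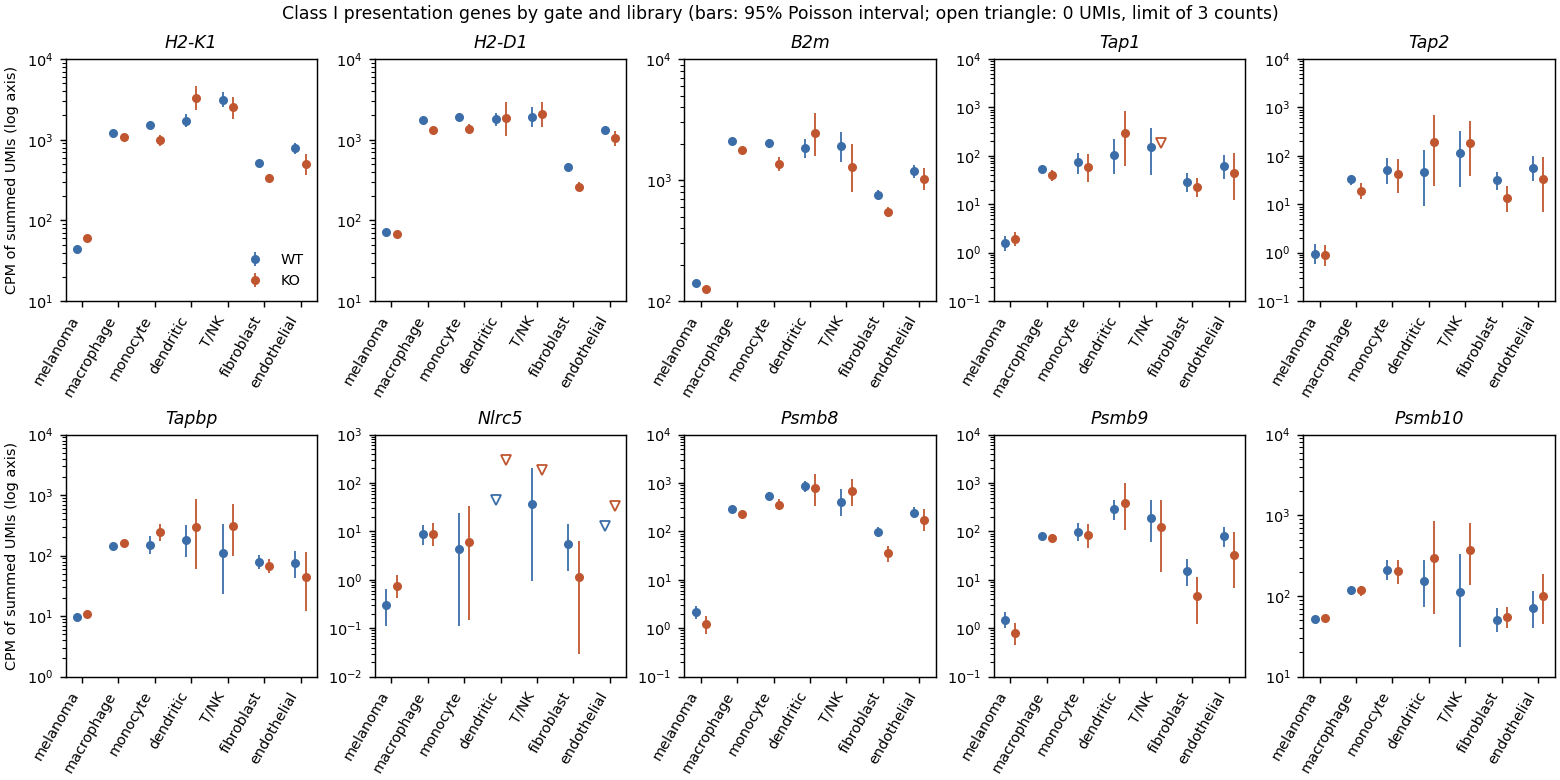
Level of each of the 10 genes as CPM of summed UMIs (log axis) in 7 marker gates, WT in blue and KO in orange, with 95% Poisson intervals; open triangles mark gates with 0 UMIs, at the level of 3 counts. Among gates with any UMI the melanoma gate is lowest in both libraries for every gene but Psmb10, which is level with the fibroblast gate, and Nlrc5 rests on at most 19 UMIs in any gate.

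All 10 genes were at least 2-fold lower in the melanoma than in the macrophage gate in both libraries, as were 14.4% of 11596 genes tested (at least 50 UMIs), while 0 of 10 were 2-fold higher, where 24.9% of genes were. Their median log2 ratio of melanoma over macrophage was -4.83 in WT and -4.19 in KO, against medians of 0.47 and 0.47 over all tested genes.

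Among the surface molecule genes, H2-K1 reached 43.8 CPM in WT and 61.0 CPM in KO melanoma cells, and 1207 and 1067 CPM in macrophages. Its log2 ratio of melanoma over macrophage was -4.78 (-4.90 to -4.67) in WT and -4.13 (-4.23 to -4.02) in KO. H2-D1, the other classical heavy chain of this strain, was at 71.8 and 68.4 CPM in melanoma cells and at 1748 and 1307 CPM in macrophages. B2m, which every class I molecule needs, was at 141 and 126 CPM in melanoma cells and at 2107 and 1759 CPM in macrophages, a log2 ratio of -3.90 in WT and -3.81 in KO. For these 3 genes the melanoma gate lay between 3.63% and 7.15% of the macrophage level, and no interval of the melanoma gate met that of any host gate.

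Fibroblasts, the host class nearest to melanoma cells, were still well above them. H2-K1 stood at 510 (WT) and 337 CPM (KO) in fibroblasts, a log2 ratio of melanoma over fibroblast of -3.54 (-3.72 to -3.36) and -2.47 (-2.65 to -2.28). B2m stood at 758 and 546 CPM there. Endothelial cells, which line vessels, lay between fibroblasts and macrophages with 1334 CPM of H2-D1 in WT and 1048 CPM in KO.

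The loading genes followed the same pattern at lower counts. Tap1, whose product forms the transporter with that of Tap2, had 32 UMIs in WT and 39 in KO melanoma cells (1.60 and 1.95 CPM) against 53.5 and 40.01 CPM in macrophages. Tap2 had 19 and 18 UMIs (0.948 and 0.902 CPM) in melanoma cells against 32.6 and 19.1 CPM in macrophages. Tapbp was at 9.63 and 10.7 CPM in melanoma cells and 142 and 162 CPM in macrophages. These 3 genes were at 2.91% to 6.78% of the macrophage level in melanoma cells, similar in size to H2-K1, H2-D1 and B2m. Nlrc5, the activator that sits on class I promoters, gave 6 UMIs in WT and 15 in KO melanoma cells and 19 and 15 in macrophages, so that its melanoma share of the macrophage level ranged from 1.11% to 8.82% in WT and from 3.82% to 18.4% in KO by the counting interval. In dendritic and endothelial gates Nlrc5 had 0 UMIs in both libraries, which allows up to 45.7 CPM in WT dendritic and 13.2 CPM in WT endothelial cells.

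The inducible proteasome subunits split. Psmb8 had 43 UMIs in WT and 24 in KO melanoma cells, 2.14 and 1.20 CPM, against 285 and 231 CPM in macrophages. Its log2 ratio of melanoma over macrophage was -7.05 (-7.53 to -6.61) in WT and -7.59 (-8.25 to -6.99) in KO. Psmb9 had 30 and 16 UMIs, 1.496 and 0.802 CPM, against 81.9 and 74.0 CPM in macrophages. Psmb10 was instead at 51.7 (WT) and 53.6 CPM (KO) in melanoma cells, against 118 and 117 CPM in macrophages and 51.0 and 54.5 CPM in fibroblasts. Its log2 ratio of melanoma over fibroblast was 0.02 (-0.45 to 0.53) in WT and -0.02 (-0.44 to 0.43) in KO, so no difference from fibroblasts was seen at this depth, while the ratio to macrophages was -1.19 (-1.39 to -0.99) and -1.13 (-1.35 to -0.90).

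Whether these few UMIs belong to melanoma cells was read against the myeloid-only genes, since free RNA or a doublet from a macrophage brings its genes in 1 ratio. The summed members were at 5.61% (5.45% to 5.79%) of the macrophage level in WT and 6.79% (6.57% to 7.02%) in KO, 10.7 and 23.5 times the share of the myeloid-only genes. In WT the C1q genes, which are gate markers, lie below the summed myeloid-only share and so raise this factor. Psmb10 was at 43.7% and 45.8%, and B2m at 6.71% and 7.15%. Psmb8 was at 0.753% (0.540% to 1.03%) in WT and 0.521% (0.329% to 0.786%) in KO. Single myeloid-only genes ran from 0.211% (C1qa) to 1.58% (Coro1a) in WT and from 0.153% (C1qa) to 0.703% (Coro1a) in KO, so the Psmb8 share lay within the range of single myeloid-only genes, though above their summed share (0.505% to 0.543% in WT, 0.275% to 0.304% in KO) in KO. Psmb9, at 1.83% (1.20% to 2.70%) and 1.08% (0.6% to 1.83%), overlapped that range with its intervals. In the 829 WT and 967 KO melanoma cells of a stricter gate with no myeloid-only UMI, Psmb8 had 5 and 10 UMIs, or 0.203% (0.0656% to 0.478%) and 0.425% (0.202% to 0.791%) of the macrophage level, and Psmb9 5 and 7 UMIs. The summed members were at 5.21% and 6.84% there. Whether the few Psmb8 UMIs came from melanoma cells or from foreign RNA was not settled by these values.

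**Figure D2:**
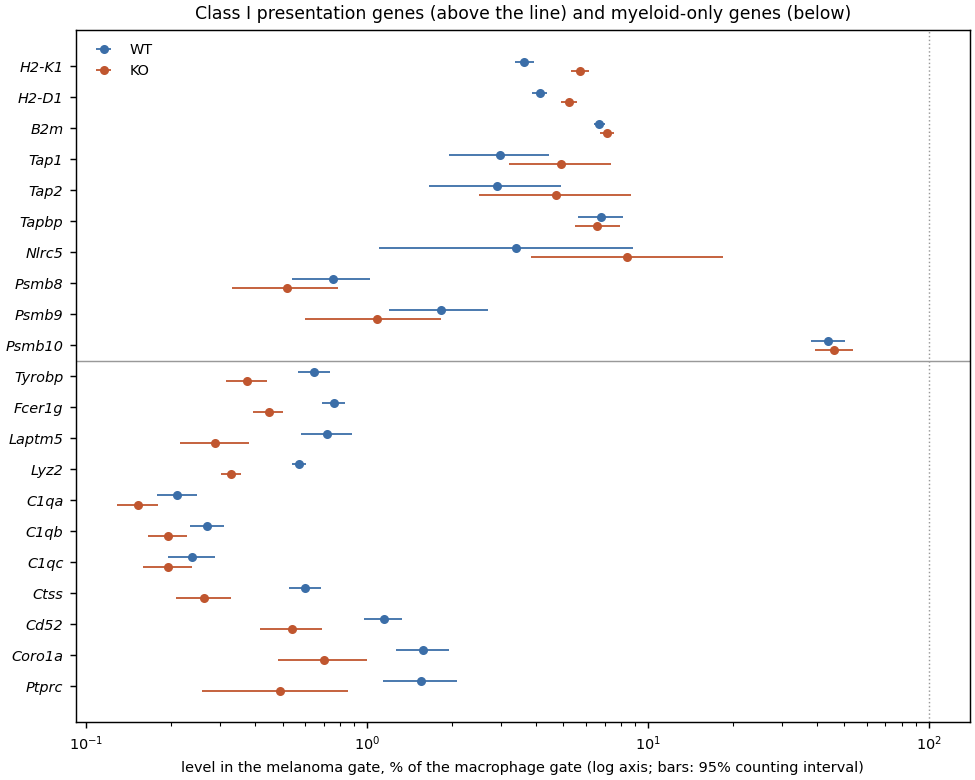
Level in the melanoma gate as a percentage of that in the macrophage gate (log axis) for the 10 class I presentation genes and 11 myeloid-only genes, with 95% counting intervals, WT in blue and KO in orange. Psmb8 (0.753% and 0.521%) sits among the myeloid-only genes, and Psmb10 (43.7% and 45.8%) is far to the right of all others.

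The share of cells showing a UMI was lower in the same way. With every cell thinned to 2000 UMIs (127 WT and 121 KO melanoma cells were shallower and left out), B2m was seen in 23.4% (21.4% to 25.5%) of WT and 22.4% (20.4% to 24.4%) of KO melanoma cells, against 96.7% and 93.1% of macrophages. Without thinning the melanoma shares were 69.7% and 65.9%. H2-K1 was seen in 8.68% (7.37% to 10.1%) of WT and 10.5% (9.09% to 12.03%) of KO melanoma cells after thinning, against 82.5% and 81.3% of macrophages and 52.9% and 45.1% of fibroblasts. Any of the 10 members was seen in 46.3% and 46.0% of melanoma cells, where any of the 11 myeloid-only genes was seen in 15.1% and 12.04%. Psmb8 was seen in 0.299% and 0.115% of melanoma cells and in 37.4% and 33.5% of macrophages. Nlrc5 was seen in 0 of 1671 and 0 of 1744 thinned melanoma cells, and the exact intervals reach 0.221% and 0.211%.

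Paired subunits compete for the same place in the proteasome, so their UMIs were set against each other within each gate. Psmb8 made 53.1% (50.2% to 56.0%) of Psmb8 plus Psmb5 UMIs in WT macrophages and 48.9% (45.4% to 52.5%) in KO macrophages. In melanoma cells it made 0.610% (0.442% to 0.821%) in WT and 0.316% (0.203% to 0.470%) in KO. Psmb9 made 0.411% and 0.200% of its pair with Psmb6 in melanoma cells and 15.3% and 14.4% in macrophages. Psmb10 made 18.0% (17.0% to 19.0%) of its pair with Psmb7 in WT and 21.5% (20.3% to 22.6%) in KO melanoma cells, against 41.3% and 47.1% in macrophages. Of the constitutive partners, Psmb5 was at 349 and 380 CPM in melanoma cells and at 252 and 241 CPM in macrophages, and Psmb7 was also higher in melanoma cells, at 236 and 196 CPM against 168 and 131 CPM. Psmb6 was lower there, at 363 and 399.8 CPM against 454 and 439.5 CPM. WT dendritic cells had the highest Psmb8 share among WT gates, 77.8% (66.4% to 86.7%), followed by T/NK cells at 68.8% (41.3% to 89.0%, 16 UMIs in all) and monocytes at 64.3% (57.1% to 71.0%), whose intervals overlap.

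**Figure D3:**
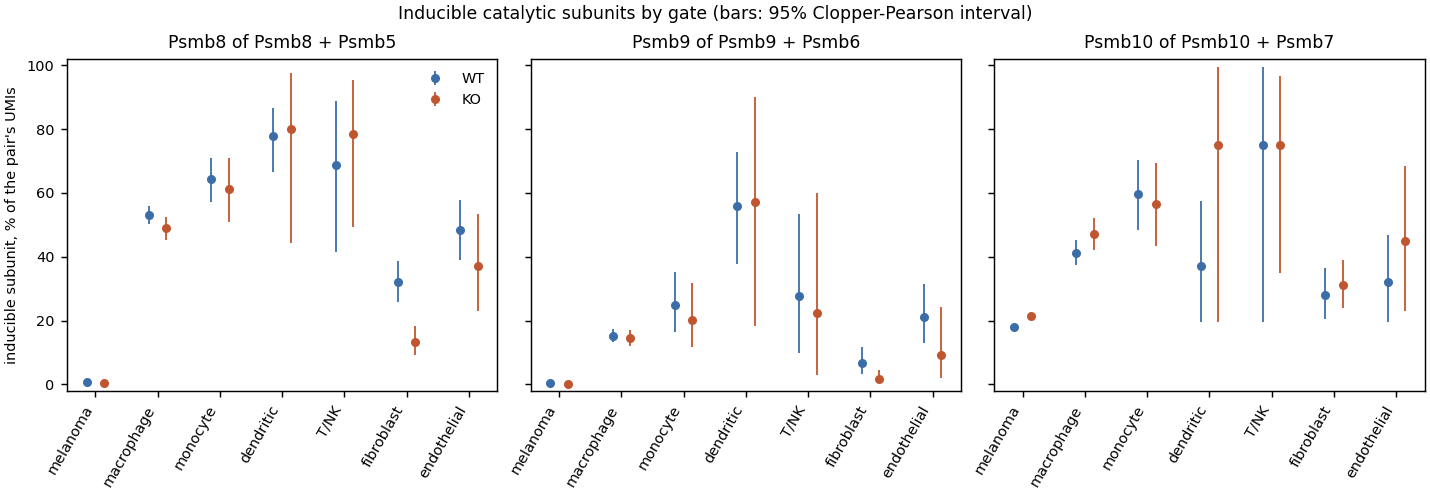
Inducible subunit as a percentage of its pair's UMIs in 7 marker gates, with 95% Clopper-Pearson intervals, WT in blue and KO in orange. In the melanoma gate Psmb8 and Psmb9 lie at the axis (below 1%) while Psmb10 is at 18.0% and 21.5%, and the fibroblast Psmb8 share is 32% in WT and 13.2% in KO.

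By host genotype, the class I genes of melanoma cells summed to 325 CPM in each library, a log2 ratio of KO over WT of 0.00 (-0.05 to 0.05). The ratio of the sum was 0.15 in the stricter gate, 0.071 without doublets and 0.077 with free RNA subtracted. As a mean over cells it was -0.077. Each of these lies outside the counting interval, and the other processing alternatives stayed inside it. H2-K1 differed: 43.8 CPM (40.9 to 46.8) in WT and 61.0 CPM in KO melanoma cells, a log2 ratio of 0.48 (0.35 to 0.61), and it stayed between 0.39 and 0.62 under all 8 processing alternatives. H2-D1, the other heavy chain, had a log2 ratio of -0.07 (-0.18 to 0.04), and B2m of -0.17 (-0.25 to -0.09), which was -0.02 in the stricter gate. Of the 7 members with at least 50 UMIs, 0 were at least 1.5-fold higher in KO melanoma cells, where 6.47% of 11055 genes were, and 1, Psmb8, was at least 1.5-fold lower, where 3.59% were. The Psmb8 difference of 43 against 24 UMIs, a log2 ratio of -0.83 (-1.62 to -0.08), turned to 0.86 in the stricter gate described above, where 5 and 10 UMIs were left. Tap1, Tapbp and Psmb10 had log2 ratios of 0.29, 0.15 and 0.05 with intervals that include 0.

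Host cells, which carry the genotype, had less class I RNA in the KO library in 4 of the 6 host gates, with intervals below 0. The summed level of macrophages was 5784 CPM in WT and 4785 CPM in KO, a log2 ratio of -0.27 (-0.31 to -0.23). Monocytes went from 6600 to 4693 CPM (-0.49, -0.62 to -0.37), fibroblasts from 2036 to 1345 CPM (-0.60, -0.71 to -0.49) and endothelial cells from 3885 to 3000 CPM (-0.37, -0.57 to -0.18). T/NK cells had 8099 and 7550 CPM, with an interval from -0.43 to 0.22. Dendritic cells had 6983 and 9897 CPM, but the KO value rests on 6 cells, and its log2 ratio of 0.50 was -0.45 with TMM scaling. Median log2 ratios over the members tested were -0.26 in macrophages, -0.54 in monocytes, -0.54 in fibroblasts and -0.41 in endothelial cells, where the medians over all genes tested were -0.01, -0.03, -0.04 and -0.03.

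**Figure D4:**
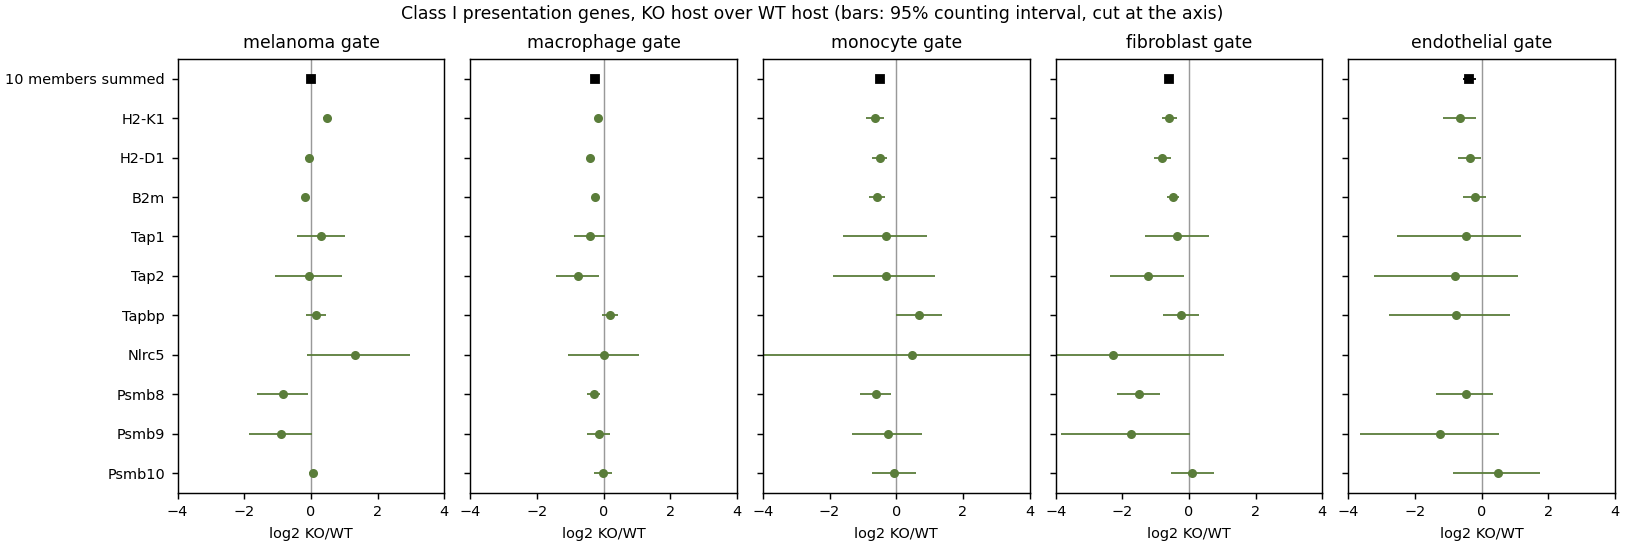
Log2 ratio of KO over WT for the sum of the 10 genes (black square) and each gene (green) in 5 marker gates, with 95% counting intervals cut at the axis; genes with 0 UMIs in a library are left out. The sum is at 0.00 in the melanoma gate and between -0.60 and -0.27 in the host gates, and H2-K1 is the only gene whose interval lies above 0 in the melanoma gate.

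In fibroblasts, the gate with the log2 ratio of the sum furthest below 0, the difference was shared unequally among the genes. Psmb8 stood at 99.3 CPM (72 UMIs) in the WT and 35.2 CPM (31 UMIs) in the KO fibroblasts, a log2 ratio of -1.50 (-2.15 to -0.87), and its share of the pair with Psmb5 was 32% (26.0% to 38.5%) in WT and 13.2% (9.18% to 18.3%) in KO. Psmb5 itself had levels of 211 (WT) and 230.5 CPM (KO) in fibroblasts, a log2 ratio of 0.13 (-0.18 to 0.44). H2-D1 had 456 CPM in the WT library against 262 CPM in the KO library (log2 ratio -0.80, -1.05 to -0.55). H2-K1 went from 510 to 337 CPM (-0.60, -0.82 to -0.37) and B2m from 758 to 546 CPM (-0.47, -0.65 to -0.29). Psmb10, at 51.0 and 54.5 CPM, had a log2 ratio of 0.10 (-0.55 to 0.75). At least 1.5-fold lower in KO were 3 of the 6 members tested in fibroblasts, H2-K1, H2-D1 and Psmb8, where 12.7% of 4268 genes were, and 0 were that much higher, where 9.44% were. In the stricter gate, with 64 WT and 71 KO fibroblasts, the log2 ratios of H2-K1 and H2-D1 were -0.17 and -0.26 and that of Psmb8 was -1.03.

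In macrophages H2-K1, H2-D1, B2m and Psmb8 had log2 ratios nearer to 0. H2-D1 had the largest difference of the 3 surface molecule genes, 1748 CPM in WT and 1307 CPM in KO, a log2 ratio of -0.42 (-0.50 to -0.34). B2m had a log2 ratio of -0.26 (-0.33 to -0.19), H2-K1 of -0.18 (-0.27 to -0.09) and Psmb8 of -0.30 (-0.49 to -0.11). Tap2, with 70 and 32 UMIs, was the 1 of 9 members tested that was at least 1.5-fold lower in KO macrophages, where 6.58% of 6600 genes were, and 0 of 9 were that much higher, where 6.76% were. Tapbp and Psmb10 had log2 ratios of 0.19 (-0.05 to 0.43) and -0.01 (-0.29 to 0.26). In monocytes H2-K1 and Psmb8 were at least 1.5-fold lower, 2 of 6 tested against 11.0% of 1195 genes, and Tapbp was the 1 of 6 that was at least 1.5-fold higher (151 and 244 CPM, log2 ratio 0.69, 0.01 to 1.39), against 9.54%. In endothelial cells H2-K1, at 781 and 496 CPM, was the 1 of 4 tested that was at least 1.5-fold lower, against 11.1% of 985 genes, and 0 of 4 were that much higher, against 8.53%. In T/NK cells 0 of 3 tested passed 1.5-fold either way, where 6.52% of 138 genes were higher and 8.7% lower. In dendritic cells 1 of 4 was higher, where 16.1% of 217 genes were, and 0 of 4 lower, where 24.4% were.

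As the KO host cells held Y-linked UMIs and the WT host cells none, the ratios were taken again over host cells in which Xist was seen and no Y-linked gene was, 590 WT and 75 KO macrophages and 150 and 54 fibroblasts. The log2 ratio of the sum was then -0.79 (-0.90 to -0.68) in macrophages, -0.81 (-1.02 to -0.61) in fibroblasts and -0.74 (-1.12 to -0.38) in endothelial cells, each further below 0 than over all cells. In monocytes it was -0.43 (-0.71 to -0.15), nearer to 0 than over all cells, and in T/NK cells 0.06 (-0.60 to 0.66), from 1 KO cell. The WT sum of macrophages was 5784 CPM over all cells and 5729 CPM over those kept, while the KO sum was 4785 and 3321 CPM. In monocytes the KO sum was 4693 and 5013 CPM. Kept were 590 of 813 WT but 75 of 662 KO macrophages, so the level also differed within the KO pool. Whether the kept KO cells came from 1 of its 2 tumours was not tested. Globin UMIs in WT fell mostly in macrophages (2929), monocytes (497) and fibroblasts (341), with 8 in endothelial, 4 in dendritic and 0 in T/NK cells. They were not used in any gate, and their part in these differences was not tested. Host genotype cannot be told apart from the pool of 2 tumours or from the library.

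The rest of the pathway was read from fixed lists. Of 8 other class I heavy chain genes, 5 were tested in macrophages and 4 of them were at least 1.5-fold lower in KO, against 6.58% of all genes, with H2-T23 (the Qa-1 molecule) from 94.0 to 52.6 CPM and H2-Q7 (Qa-2) from 51.2 to 28.7 CPM. The median of these 5 was -0.77. In monocytes the 1 tested, H2-T23, was also lower (250.2 and 131 CPM), where 11.0% of genes were. In melanoma cells 0 of 3 tested differed by that much in either direction, and in fibroblasts 0 of 3. All that could be tested, 5 in WT and 4 in KO, were at least 2-fold lower in melanoma cells than in macrophages. H2-M3, which presents formylated bacterial peptides, had 8 and 3 UMIs in melanoma cells against 107 and 53 in macrophages, and H2-Q7 had 21 and 10 against 110 and 48.

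Of 10 peptide loading and trimming genes, 4 were at least 2-fold lower in melanoma cells than in macrophages in each library, where 14.4% of all genes were so in both. Psme2, a subunit of the interferon-inducible proteasome activator, was at 38.0 and 44.8 CPM in melanoma cells and 191 and 140 CPM in macrophages, and Erap1, which trims peptides in the endoplasmic reticulum, at 5.98 and 3.71 CPM against 28.8 and 22.7 CPM. Between the libraries, Pdia3, the oxidoreductase of the loading complex, was lower in KO macrophages (362 and 228 CPM, a log2 ratio of -0.67) and was the 1 of 9 tested to be so by 1.5-fold, against 6.58% of all genes. In KO melanoma cells 1 of 10, Erap1, was that much lower, against 3.59%. In endothelial cells 2 of 5, Pdia3 and Hspa5, were lower, against 11.1%, and in monocytes 0 of 6. Of 8 tested in fibroblasts, where 12.7% of genes were lower and 9.44% higher, Pdia3 was lower (564 and 332 CPM) and Psme3, a nuclear proteasome activator subunit, was higher (log2 ratio 1.72). None of the 3 constitutive catalytic subunits differed by 1.5-fold between the libraries in the melanoma, macrophage or fibroblast gates.

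Of 14 genes of the interferon-gamma pathway and of class I regulation, 7 were at least 2-fold lower in melanoma cells than in macrophages in each library, where 14.4% of all genes were so in both, with Irf8 at 1.20 and 1.35 CPM against 110 and 123 CPM, and Irf1 at 4.89 and 3.66 CPM against 35.4 and 32.8 CPM. Both encode interferon regulatory factors, and Irf8 is also a myeloid gene. Between the libraries 0 of 14 differed by 1.5-fold in melanoma cells and 0 of 12 in macrophages. The receptor chain gene Ifngr2, 1 of 6 tested, was lower in KO fibroblasts (135 and 74.9 CPM), as were 12.7% of all genes. The other receptor chain gene Ifngr1, 1 of 3 tested, was lower in KO monocytes (293 and 107 CPM), as were 11.0%, and the kinase gene Jak1, 1 of 2 tested, in KO endothelial cells (215 and 99.3 CPM), as were 11.1%. Irf1 had under 50 UMIs in fibroblasts and is named there after its values were seen. It had 32 UMIs in WT and 7 in KO fibroblasts, a log2 ratio of -2.47 (-3.90 to -1.27). With no minimum of UMIs, 27.1% of 14025 genes were at least 1.5-fold lower in KO fibroblasts and 20.8% higher. As 1 gene picked for its values, Irf1 says nothing of the list.

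The interferon-response list of 18 genes, which holds no member, was read in the same way. In KO macrophages 6 of 18 were at least 1.5-fold higher and 2 lower, against 6.76% and 6.58% of all genes. Rsad2, an antiviral gene of the type I interferon response, went from 55.8 to 170 CPM and Gbp2, a guanylate-binding protein, from 17.2 to 38.8 CPM. In KO melanoma cells 3 of 12 tested were that much higher and 0 lower, against 6.47% and 3.59%, with Rsad2 from 9.73 to 24.4 CPM and Isg15 from 7.73 to 19.2 CPM. In monocytes 1 of 4 tested was higher (Rsad2, 77.7 and 202 CPM) and 1 lower (Bst2, 492 and 238 CPM), against 9.54% and 11.0%. In endothelial cells 1 of 2 tested was lower, against 11.1%: Rsad2, with 49 WT and 2 KO UMIs. In fibroblasts 1 of 6 tested was at least 1.5-fold lower in KO, against 12.7%, the surface protein gene Bst2 (log2 ratio -0.93). In each library all 15 genes tested there were at least 2-fold lower in melanoma cells than in macrophages, led by Zbp1 and Parp14. Of all genes, 14.4% were so in both libraries. The sets of 15 differ, as Usp18 was tested in WT only and Gbp3 in KO only. Ifng itself, the gene of interferon-gamma, had 1 UMI in WT macrophages, 1 in WT melanoma cells and 0 in every other gate, the 28 WT and 15 KO T/NK cells included.

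Within a gate, the members were set against the interferon-response UMIs of the same cell after thinning to 2000 UMIs. In WT macrophages the summed members were at 4903 CPM in cells with 0 such UMIs and 6485 CPM in cells with at least 2, a 1.32-fold difference, and in KO macrophages at 4130 and 5500 CPM, 1.33-fold. In WT melanoma cells they were at 327 CPM in 1176 cells with 0 and 539 CPM in 114 cells with at least 2, 1.65-fold, where the myeloid-only genes differed 4.51-fold. In KO melanoma cells the values were 316 CPM in 1156 cells and 393 CPM in 163 cells, 1.24-fold, and the myeloid-only genes differed 1.41-fold. Over melanoma cells with no myeloid-only UMI the log2 ratio was 0.34 (-0.19 to 0.83) in WT and 0.36 (-0.01 to 0.72) in KO, both intervals including 0. With doublets removed the KO log2 ratio was 0.33 (0.05 to 0.60), with -0.57 to 0.77 for the myeloid-only genes, and the WT ratio was 0.60 (0.28 to 0.91), with 1.63 to 2.47 for the myeloid-only genes.

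**Figure D5:**
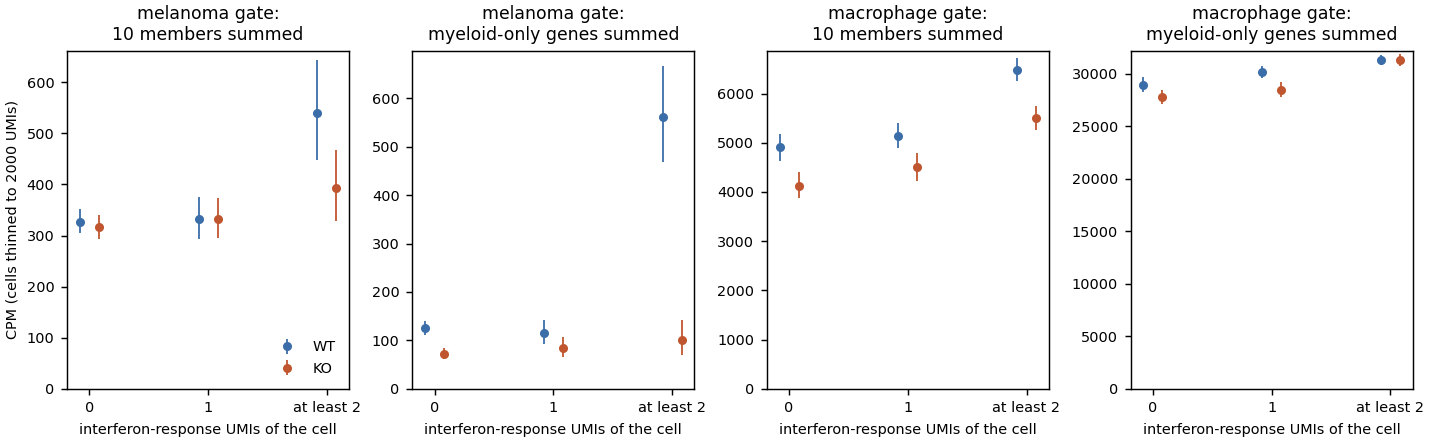
CPM of the 10 summed class I genes and of the 11 summed myeloid-only genes in cells with 0, 1 or at least 2 interferon-response UMIs after thinning to 2000 UMIs, in the melanoma and macrophage gates, WT in blue and KO in orange, with 95% Poisson intervals. In WT melanoma cells both sums are highest in cells with at least 2 such UMIs (539 CPM for the class I genes, 561 CPM for the myeloid-only genes).

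Across the 12 gates with at least 20 cells, the genes other than the members most like their mean profile were Sp100 (Pearson r 0.974), a nuclear body protein gene, Sh3bgrl3 (0.967), the actin-binding peptide gene Tmsb4x (0.964), the phosphatase gene Dusp5 (0.964) and Shisa5 (0.963), out of 11027 genes. Of the members with at least 100 UMIs, which leaves out Nlrc5, H2-K1 was most like that mean (0.991) and Psmb10 least (0.772). Each member is itself part of the mean, so these values cannot be set beside those of the other genes. The points share 2 libraries, and gates of 1 library share its depth and foreign RNA, so these are descriptions.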

How the data were processed

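Single-cell suspensions of 2 pools of B16F10 tumours were sequenced with a 10x Genomics 3′ kit, 1 library per host genotype. The authors deposited raw UMI counts per gene and barcode, made with Cell Ranger 3.1.0 on GRCm38, and the submitters' processing notes also name Seurat 3.2.1. The labels and the study's methods differ on the kit version.

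The study's filters were applied (200 to 5000 genes, at most 7.5% mitochondrial UMIs). Cells were gated on fixed markers that hold no member, with thresholds set from the marker counts after these were seen. Cells that met several gates stayed out, except that monocyte markers did not bar a cell from the macrophage, dendritic or T/NK gate. Those gates can thus hold cells that also met the monocyte gate. Scrublet marked 98 WT and 52 KO cells as doublets, which were kept and left out as an alternative. UMIs were summed per gate and library, scaled to CPM and given exact Poisson intervals. Ratios carry exact conditional binomial intervals, and shares Clopper-Pearson intervals, all at 95%. A count of 0 allows up to 3 counts. Intervals of ratios were checked on simulated Poisson counts. These held no variation between cells or tumours, so the check bears on the computation and on counting error only. No p-value was computed.

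The members and lists were chosen with earlier results of these data known. Named were the 10 members, the 2 genes of each list with the largest absolute log2 ratio, and the 5 genes most like the members' mean. Promoters came from RefSeq (GRCm38.p6). Alternatives were a mitochondrial limit of 15%, cells with over 5000 genes kept, removal of doublets, a stricter gate, totals without mitochondrial and ribosomal protein genes, TMM scaling (edgeR 4.0.16), free RNA subtracted, means over cells, another thinning depth, and host cells with Xist and no Y-linked UMI. Python 3.11.15, numpy 2.4.6, scipy 1.17.1, pandas 2.3.3, scanpy 1.11.5, matplotlib 3.10.9 and R 4.3.3 were used.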

Additional observations from a re-analysis of the deposited data

Results flagged for a closer look

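H2-K1 differed between the libraries in opposite directions by gate. Its log2 ratio of KO over WT was 0.48 in the melanoma gate and 0.95 in the dendritic gate, and it was -0.18 in macrophages, -0.63 in monocytes, -0.60 in fibroblasts and -0.65 in endothelial cells. With 1 library per genotype the difference between gates was not tested. The dendritic value rests on 6 KO cells. H2-D1, from which the split of UMIs with H2-K1 is uncertain, had a log2 ratio of -0.07 in the melanoma gate.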

How the results depend on the processing

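No paired analysis was possible because WT and KO had 1 library each, and no replicate could be left out. Of the alternative values of the main results, 61 moved by less than their counting interval and 31 by more, and of the remaining values (single genes and sums in other gates) 1537 and 256, with 3 reversed. The WT log2 ratio of melanoma over macrophage for the sum was -4.11 with a mitochondrial limit of 15%, -4.23 without doublets, -4.26 in the stricter gate, -4.03 without mitochondrial and ribosomal protein genes, -4.38 with TMM, -4.37 with free RNA subtracted and -3.97 as a mean over cells. In KO it was -3.74 without those genes, -4.14 with TMM, -4.02 with free RNA subtracted and -3.72 as a mean over cells. For the sum, KO over WT in melanoma cells was 0.071 without doublets, 0.15 in the stricter gate, 0.077 with free RNA subtracted and -0.077 as a mean over cells. In macrophages it was -0.32 as a mean over cells and -0.79 over cells with Xist and no Y-linked UMI, where fibroblasts had -0.81 and endothelial cells -0.74. Over the 3 pairs together, inducible subunits made 5.51% (WT) and 5.39% (KO) of the UMIs in melanoma cells. This was 4.97% in the WT stricter gate and 5.81% in KO with a mitochondrial limit of 15%. The pooled share is mostly Psmb10, with 1036 and 1070 UMIs against 43 and 24 of Psmb8 and 30 and 16 of Psmb9. B2m was seen in 69.7% (WT) and 65.9% (KO) of melanoma cells without thinning and in 12.9% and 11.99% at 1000 UMIs. The members' melanoma share over that of the myeloid-only genes was 11.4 in WT with a mitochondrial limit of 15%, 17.4 in WT and 28.5 in KO without doublets, and could not be computed in the stricter gate, which holds 0 myeloid-only UMIs by construction. The log2 interferon split of melanoma cells was 1.17 (WT) and 0.68 (KO) at 1000 UMIs and 0.34 in WT without myeloid-only UMIs. Reversed were Psmb8 of KO over WT in melanoma cells (0.86, stricter gate), and the dendritic sum (-0.45) and dendritic H2-K1 (-0.0012) with TMM. For all of these the cause was not tested. Counts over all genes moved with the fold and with the minimum of UMIs. Higher and lower in KO by 1.5-fold were 715 and 397 genes in melanoma cells (220 and 77 by 2-fold, 3083 and 2279 with no minimum of UMIs), 446 and 434 in macrophages (109 and 76, 2832 and 2469), 114 and 132 in monocytes (35 and 29, 3142 and 2310), 403 and 541 in fibroblasts (140 and 170, 2920 and 3807), 84 and 109 in endothelial cells (22 and 28, 4849 and 1649), 35 and 53 in dendritic cells (9 and 29, 6004 and 252) and 9 and 12 in T/NK cells (1 and 3, 3531 and 1516). Lower in melanoma cells than in macrophages were 1674 genes, and 7280 with no minimum.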
